A study of Mus musculus with 3 samples.

Results

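The barcodes described here are those in which mitochondrially encoded transcripts held more than 10% of all unique molecular identifiers (UMIs, the tags that count single RNA molecules). They numbered 1768 of the 18075 deposited barcodes, or 9.78% (exact Clopper-Pearson 95% interval 9.35 to 10.2%). They were chosen by the summed share of the 37 genes on the mitochondrial chromosome, with no filter on detected genes, and are called mitochondria-rich below. The remaining 16307 barcodes, at or below 10%, are called the other barcodes. The knockout library held 589 mitochondria-rich barcodes of 5152, control 1 held 657 of 4814, and control 3 held 522 of 8109.

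The series profiled Ly6Chi monocytes, the inflammatory blood-derived monocytes of the mouse, sorted from injured liver with a droplet 3' assay. The knockout library, labelled LysMDCommd10 on C57BL/6 and numbered 4, is labelled as deleted for Commd10 through LysM, a driver active in myeloid cells. The control libraries, numbered 1 and 3, are labelled Commd10fl/fl on C57BL/6 and carry the floxed gene undeleted. All came from male mice aged 8 weeks, 24 h after acetaminophen at 300 mg/kg given intraperitoneally following a fast of 12 h, with chow returned 2 h after the dose, and no uninjured library was analysed here. The labels do not say how many mice gave each library, so every p-value here reflects how much single libraries vary, a spread that could be technical.

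The libraries held 30302932 UMIs in knockout 4, 40092348 in control 1 and 72867668 in control 3. The design text states 5229, 4860 and 8149 cells for them, slightly more than the barcodes deposited. Libraries shared few cell barcodes: 8 between knockout 4 and control 1, 24 between knockout 4 and control 3, and 26 between control 1 and control 3. Of 110 barcodes with a namesake in another library, 13 were mitochondria-rich. Control 3 stood apart at the upper end, with 20 barcodes above 40% mitochondrial UMIs, against 0 in knockout 4 and 3 in control 1. Commd10 itself gave 2 UMIs in the mitochondria-rich barcodes of knockout 4, against 6 in control 1 and 1 in control 3, too few to compare. Over the other barcodes it gave 8.49 CPM (counts scaled to a common total of nuclear UMIs) in knockout 4, against 17.8 in control 1 and 10.4 in control 3. The labels do not say which exons are deleted, so a 3' count may not check the deletion.

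Mitochondrial RNA is made and kept inside the organelle, apart from messenger RNA in the cytosol, and some long noncoding RNAs stay in the nucleus. In single-cell work a high mitochondrial share is a widely used sign of a damaged cell, in which cytosolic RNA can leak away while organelles remain. A low nuclear-encoded total, or many active mitochondria, raises the same share, and the share alone does not separate these. In droplet data, RNA free in the suspension also enters every droplet and weighs more in droplets that hold little RNA of their own.

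The mitochondrial share had a separate upper hump in each library. Most barcodes lay under 2%: 1798 in knockout 4, 1862 in control 1 and 3455 in control 3 lay under 1%, and 1865, 1602 and 3173 lay between 1 and 2%. Counts dropped to 53, 57 and 66 barcodes between 4 and 5% in knockout 4, control 1 and control 3, and were higher again at 128, 90 and 136 between 7 and 8%. The 10% threshold therefore ran through the upper hump rather than through the gap below it. The median share of the mitochondria-rich barcodes was 13.1% in knockout 4, 13.3% in control 1 and 12.8% in control 3, with a maximum of 30.6%, 64.6% and 70.5%.

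**Figure D1:**
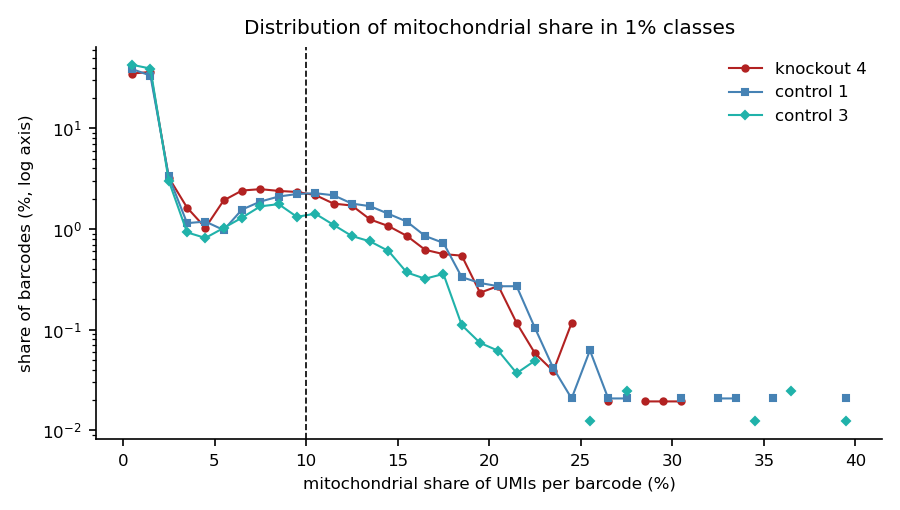
Share of each library's barcodes in each 1% class of mitochondrial share, for knockout 4, control 1 and control 3. The x axis is percent of UMIs, the y axis is percent of barcodes on a log scale, and a dashed line marks 10%. Barcodes above 40% mitochondrial UMIs are not drawn. Each library shows a large peak under 2%, a dip near 4 to 5%, and an upper hump that the line crosses.

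Just inside and just outside the threshold the barcodes looked alike. Between 10 and 11%, Malat1 held 7.36%, 7.19% and 7.18% of nuclear UMIs in knockout 4, control 1 and control 3, against 6.82%, 6.78% and 7.07% between 9 and 10%. The median nuclear UMI count was 794, 992 and 837 just inside, against 886, 1055.5 and 810 just outside. Over the whole range from 5 to 10%, which held 596, 421 and 574 barcodes, Malat1 was at 6.36%, 6.44% and 6.72%, against 0.980%, 0.941% and 1.09% at or below 3%. Most of the difference in Malat1 was thus already present between 5 and 10%.

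The share of barcodes above 10% was 11.4% in knockout 4 (95% interval 10.6 to 12.3%), against 13.6% in control 1 (12.7 to 14.6%) and 6.44% in control 3 (5.91 to 6.99%). The intervals cover counting error only. The knockout value lay between the controls, and an exact permutation test of 1 library against 2 cannot go below p = 0.33. The position of the threshold set the size of the class: at 5% the shares were 23.0% in knockout 4, against 22.4% in control 1 and 13.5% in control 3, and at 20% they were 0.660%, against 0.956% and 0.481%.

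Mitochondria-rich barcodes held little nuclear-encoded RNA and slightly more mitochondrial RNA than the other barcodes. Their median nuclear UMI count was 672 in knockout 4, 747 in control 1 and 675 in control 3, against 6723, 8643 and 8007 in the other barcodes, which is 10.0, 11.6 and 11.9 times as many. The median mitochondrial UMI count was 106, 122 and 108, against 76, 94 and 87, a ratio of 1.39, 1.30 and 1.24. They detected a median of 465, 528 and 476.5 genes, against 2345, 2772 and 2617. Since the share is mitochondrial over total UMIs, both counts entered the choice of members, and these differences are a description.

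**Figure D2:**
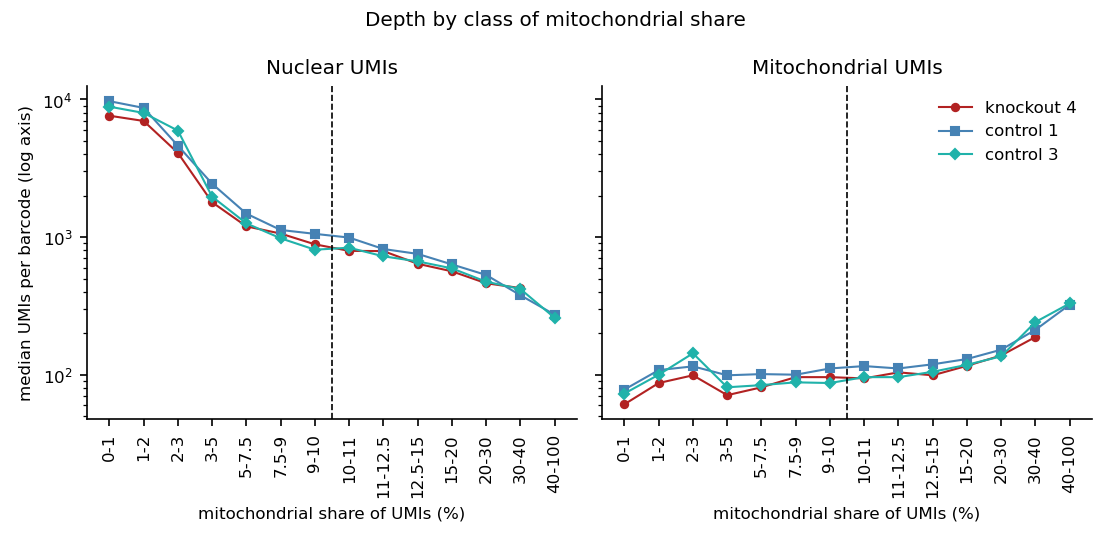
Median nuclear-encoded UMIs (left panel) and median mitochondrial UMIs (right panel) per barcode in knockout 4, control 1 and control 3. The x axis gives classes of mitochondrial share, the y axis is on a log scale, and a dashed line marks 10%. Medians over all barcodes above 10% and over all other barcodes are not drawn. For nuclear UMIs these are 672 to 747 above 10% and 6723 to 8643 in the other barcodes. For mitochondrial UMIs they are 106 to 122 and 76 to 94.

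Between 500 and 1000 UMIs, 66.3% of barcodes in knockout 4, 77.9% in control 1 and 58.6% in control 3 were mitochondria-rich. Between 1000 and 2000 UMIs the shares were 20.8%, 39.6% and 20.9%, and between 2000 and 5000 UMIs 0.547%, 6.72% and 0.586%. At 5000 UMIs or more there were 0 of 3302, 0 of 3385 and 0 of 6382, which allows up to 0.0909%, 0.0886% and 0.0470%. The class was thus a class of shallow barcodes in every library. It held 15.3%, 16.6% and 7.27% of all mitochondrial UMIs in knockout 4, control 1 and control 3, but 1.65%, 1.63% and 0.602% of all UMIs.

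Measured per barcode, the ratio between the classes varied widely from gene to gene. The median gene had 9.90% in knockout 4, 9.23% in control 1 and 7.61% in control 3 of its mean UMIs in the other barcodes. Malat1, a noncoding RNA of nuclear speckles, had 53.5, 62.7 and 51.7 UMIs per mitochondria-rich barcode, against 73.4, 97.7 and 109 per other barcode, so 72.9%, 64.2% and 47.3% of its level. Neat1, the scaffold RNA of paraspeckles, had 34.0%, 26.1% and 18.1% of its level. Actb, cytoplasmic beta-actin, had 5.03, 6.62 and 4.34 UMIs, against 127, 187 and 155, or 3.97%, 3.54% and 2.80%. Among these genes the speckle RNA stood far above the median gene and the actin message below it in all 3 libraries.

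The mitochondrial transcripts themselves were made up much alike in both classes. The mitochondrial chromosome encodes 13 proteins of the respiratory chain and ATP synthase, 2 ribosomal RNAs and 22 transfer RNAs. These genes chose the members, so their make-up is given as shares of mitochondrial UMIs, with no test. Most of the mitochondrial UMIs came from a few genes. mt-Rnr2, the large ribosomal RNA (chrM:1094-2675, GRCm38), held 23.7%, 25.4% and 32.7% of mitochondrial UMIs in the mitochondria-rich barcodes of knockout 4, control 1 and control 3, against 24.9%, 22.6% and 29.5% in the other barcodes. mt-Cytb, the cytochrome b of complex III (chrM:14145-15288), held 28.0%, 25.5% and 21.8%, against 24.5%, 24.1% and 20.9%. mt-Nd4 of complex I held 14.6%, 14.03% and 12.3%, against 14.3%, 14.4% and 13.2%. The classes thus differed little in their most abundant mitochondrial RNAs, and libraries differed as much as classes did.

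Several less abundant mitochondrial genes varied more. Of the 13 messenger RNAs, 3 held a higher share in mitochondria-rich barcodes of all 3 libraries, namely mt-Cytb (1.05 to 1.14 times), mt-Nd2 of complex I (1.02 to 1.10 times) and mt-Co3 of complex IV (1.11 to 1.23 times). Another 8 held a lower share in all 3. Among these, mt-Co1 of complex IV held 3.54%, 3.31% and 3.18%, against 4.54%, 4.96% and 5.19%, and mt-Nd5 of complex I held 1.24%, 1.19% and 1.44%, against 1.98%, 2.28% and 2.54%. Ratios were lowest for mt-Nd4l (0.369 to 0.495), and stood at 0.520 to 0.628 for mt-Nd5, 0.558 to 0.642 for mt-Atp8 and 0.612 to 0.781 for mt-Co1. The others of the 8 were mt-Nd1, mt-Nd3, mt-Co2 and mt-Nd6, at 0.735 to 0.933 times. mt-Atp6 of ATP synthase, mt-Nd4 and both ribosomal RNAs, mt-Rnr1 among them, had no common direction, with ratios between 0.929 and 1.25.

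**Figure D3:**
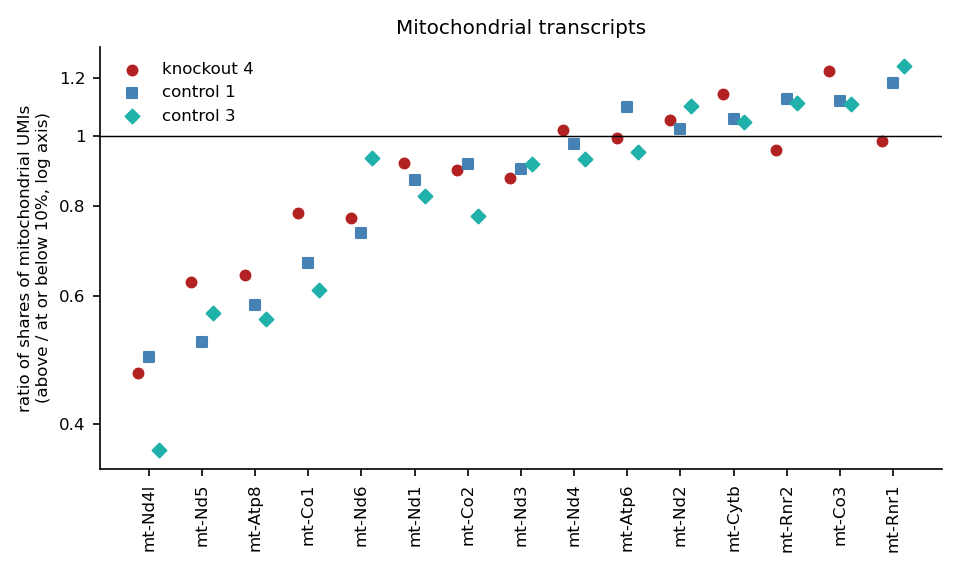
For each mitochondrial messenger and ribosomal RNA, its share of mitochondrial UMIs in barcodes above 10% divided by its share in the other barcodes, 1 point per library. mt-Nd4l, mt-Nd5 and mt-Atp8 lie at 0.369 to 0.642, and mt-Co3, mt-Cytb and mt-Nd2 lie above 1 in every library.

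The pair mt-Atp8 and mt-Atp6, and the pair mt-Nd4l and mt-Nd4, are each carried on a shared message with overlapping reading frames, and the sequences, taken from GENCODE M21 transcripts on GRCm38, show the overlaps in capitals because reads there fit both genes. The first pair shares 43 bases (chrM:7927-7969) and the second 7 bases (chrM:10167-10173). The lines run 5' to 3' on the plus strand, and give the last 60 bases of each upstream gene and the first 70 of each downstream gene.
mt-Atp8 end: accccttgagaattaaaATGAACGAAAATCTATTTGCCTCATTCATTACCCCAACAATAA
mt-Atp6 start: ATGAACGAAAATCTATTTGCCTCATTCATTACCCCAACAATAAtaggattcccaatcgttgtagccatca
mt-Nd4l end: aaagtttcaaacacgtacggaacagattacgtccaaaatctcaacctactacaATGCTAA
mt-Nd4 start: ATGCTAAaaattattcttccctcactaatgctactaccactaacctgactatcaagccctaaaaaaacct

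Within each of these messages the upstream frame gave fewer UMIs relative to the downstream one in mitochondria-rich barcodes. There were 13.2, 27.0 and 55.8 mt-Atp8 UMIs per 100 mt-Atp6 UMIs in knockout 4, control 1 and control 3, against 20.4, 50.6 and 94.9 in the other barcodes. For mt-Nd4l the values were 0.111, 0.190 and 0.130 per 100 mt-Nd4 UMIs, against 0.241, 0.374 and 0.326, but they rest on 11, 24 and 10 mt-Nd4l UMIs in mitochondria-rich barcodes. No source used here says how reads in the overlaps were assigned.

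Nuclear-encoded genes were compared as sums over barcodes, each scaled to its nuclear UMIs with the trimmed mean of M-values (TMM) and given as CPM. In edgeR's quasi-likelihood test with the library as a block, 2374 of 12535 nuclear genes rose (18.9%) and 3291 fell (26.3%) in mitochondria-rich barcodes relative to the other barcodes, at a Benjamini-Hochberg adjusted p under 0.05. The counts depended on the scaling: on plain nuclear totals 3796 rose and 1974 fell, and the median log2 change of all genes was 0.29, against -0.13 under TMM, so changes are read here against that median. A change in CPM is a change in a gene's share of nuclear RNA. Fewer cells and less RNA per cell cannot be told apart within a summed class.

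Nuclear-retained RNAs made up a larger share of what the mitochondria-rich barcodes held. Of 9 measured members of that list, 6 rose and 0 fell, with a median log2 change of 1.03. Malat1 (chr19:5795690-5802672, minus strand, GRCm38) stood at 65349, 61423 and 61659 CPM in knockout 4, control 1 and control 3, against 13428, 11841 and 13392 CPM in the other barcodes. The log2 change was 2.29 ± 0.10 (SE, n = 3 libraries, edgeR adjusted p = 2.2e-32). Malat1 is also named among the markers by which the class was described, with earlier results known, so this is a description more than a test. Neat1 (chr19:5824708-5845478) had 2525, 1933 and 1658 CPM, against 1112, 918 and 939 CPM, a log2 change of 1.03 ± 0.09 (edgeR adjusted p = 1.1e-15). Kcnq1ot1, the antisense RNA of an imprinted domain, had 456, 353 and 386 CPM, against 130, 116 and 102 CPM, and rose by 1.77 ± 0.11 on the log2 scale. Among all tested genes of at least 20 CPM on average, 140 of 175 annotated long noncoding RNAs rose (80.0%) and 18 fell, against 1243 of 5750 protein-coding genes that rose (21.6%) and 2562 that fell (44.6%). That average covers both classes, so RNAs low in the other barcodes could pass through the class where they were high. Without that limit, 615 of 1472 long noncoding RNAs rose (41.8%) and 42 fell. Of 10539 protein-coding genes, 1646 rose (15.6%) and 3157 fell. The pattern was thus not limited to the few RNAs named.

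Ribosomal protein messages fell as a whole. All 77 measured genes fell, with a median log2 change of -1.69. Rps16 of the small subunit had 906, 940 and 900 CPM in knockout 4, control 1 and control 3, against 3351, 3375 and 3541 CPM, a log2 change of -1.90 ± 0.10 (edgeR adjusted p = 4.7e-28). Rpl41 of the large subunit had 1097, 1374 and 1576 CPM, against 4014, 5158 and 5047 CPM (log2 change -1.82 ± 0.10). The summed level of the list was 46155, 53097 and 57887 CPM in the mitochondria-rich class, against 149454, 168304 and 173749 CPM in the other barcodes.

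Abundant cytosolic messages fell in the same way. Of 20 list members, 19 fell and 0 rose, with a median of -1.59. Actb had 6141, 6482 and 5177 CPM, against 23206, 22668 and 19013 CPM, a log2 change of -1.87 ± 0.10 (edgeR adjusted p = 3.7e-28). Pfn1, the actin-binding profilin, had 836, 824 and 774 CPM, against 3634, 3499 and 3281 CPM (log2 change -2.10 ± 0.10). Tmsb4x, which sequesters actin monomers, fell by 1.81 ± 0.10, and Gapdh of glycolysis fell by 2.00 ± 0.10. In sign alone, all 20 list members were lower in mitochondria-rich barcodes of all 3 libraries, as were 4775 of all 12535 genes tested.

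**Figure D4:**
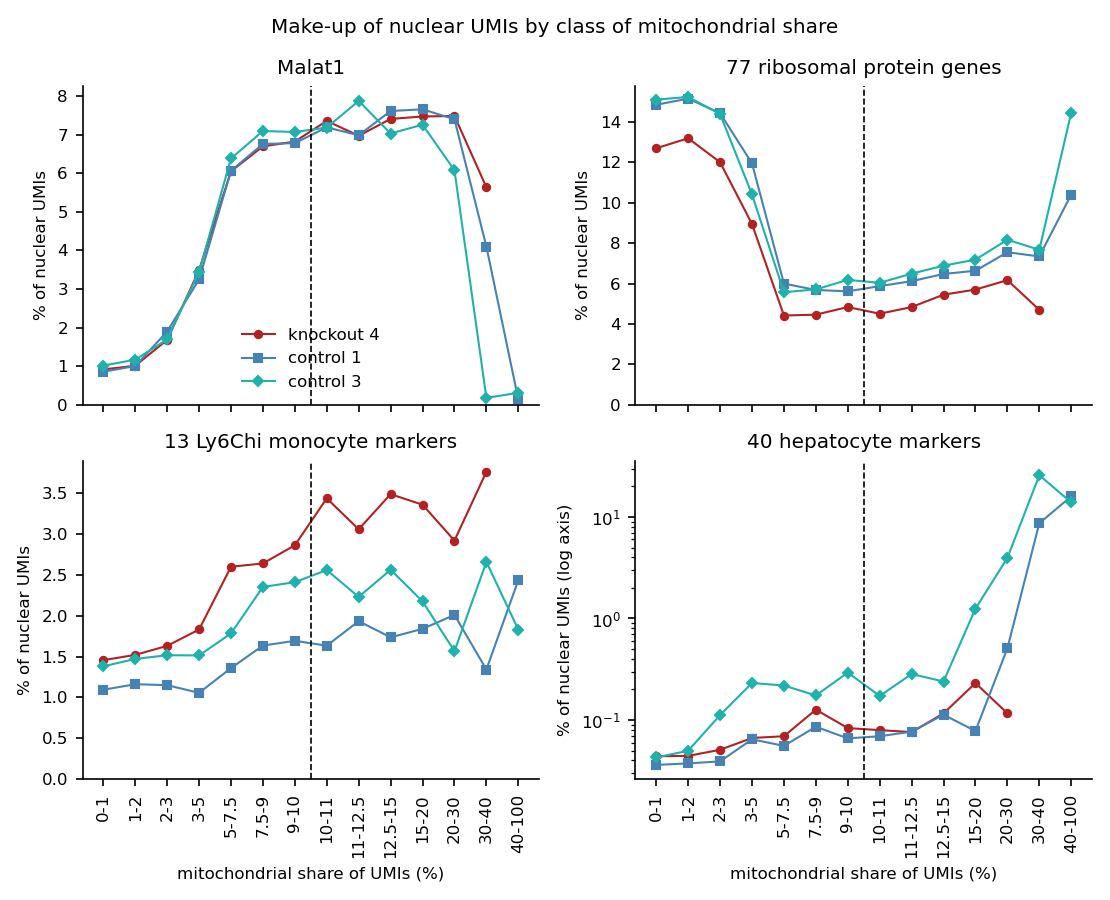
Percent of nuclear UMIs held by Malat1, ribosomal protein genes, Ly6Chi monocyte markers and hepatocyte markers (y axes) across classes of mitochondrial share (x axis) in knockout 4, control 1 and control 3. Malat1 is near 1% under 2% and at about 6 to 8% between 5 and 30%, ribosomal messages are lower between 5 and 40% than under 3%, and hepatocyte messages (a class at 0 is not drawn) are highest above 30%, at 25.8% and 13.9% in the last classes of control 3 and 8.68% and 15.9% in those of control 1.

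Nuclear genes for mitochondrial proteins made up a smaller share of nuclear RNA in the barcodes chosen for mitochondrial transcripts. Of the 73 nuclear-encoded oxidative phosphorylation genes, 70 fell and 0 rose, with a median log2 change of -1.497. Atp5e, a subunit of ATP synthase, had 390, 328 and 434 CPM in mitochondria-rich barcodes of knockout 4, control 1 and control 3, against 1329, 1423 and 1331 CPM, a log2 change of -1.84 ± 0.11 (edgeR adjusted p = 1.9e-25). Cox4i1 of complex IV had 543, 560 and 544 CPM, against 1339, 1340 and 1390 CPM (log2 change -1.30 ± 0.10). Uqcrh, a nuclear-encoded subunit of complex III, fell by 1.81 ± 0.11 on that scale, while mt-Cytb of the same complex had 32.1, 34.8 and 26.3 UMIs per mitochondria-rich barcode, against 20.03, 26.3 and 22.1 per other barcode. The first of these is a share of nuclear RNA and the second a count per barcode that the choice of members raised, so they are not a comparison. Of 34 genes for mitochondrial transcription, import, chaperones and quality control, 18 fell and 2 rose (median -0.78), among the falls Fis1 of organelle fission (-1.69 ± 0.13), Vdac2, an outer membrane channel (-1.47 ± 0.13), and Hspe1, a matrix chaperone (-1.43 ± 0.12).

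Genes of cell death did not rise as a group. Of 27 measured apoptosis and p53 target genes, 3 rose and 11 fell, and the median of -0.31 became 0.11 on plain nuclear totals. Of all tested genes 18.9% rose and 26.3% fell, and of those of at least 20 CPM on average 23.5% and 43.6%. The share of this list that fell was near the 43.6%. Bax, which permeabilises the outer mitochondrial membrane, had 189, 194 and 242 CPM in mitochondria-rich barcodes, against 478, 440 and 452 CPM, a log2 change of -1.14 ± 0.12 (edgeR adjusted p = 8.2e-14). Mcl1, a short-lived survival factor, had 732, 674 and 655 CPM, against 864, 741 and 807 CPM, which did not pass (edgeR adjusted p = 0.054). Of 13 pyroptosis and necroptosis genes, 1 rose and 7 fell. The riser was Gsdme, a pore-forming gasdermin, with 16.6, 64.1 and 73.1 CPM, against 15.1, 17.1 and 17.5 CPM (log2 change 1.62 ± 0.23, edgeR adjusted p = 1e-08), a difference close to nil in the knockout library. Ninj1, which ruptures the plasma membrane of dying cells, fell by 1.502 ± 0.12. Il1b, the cytokine released in pyroptosis, had 699, 611 and 754 CPM, against 701, 572 and 780 CPM, and did not pass (edgeR adjusted p = 0.92).

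Stress programmes fell more often than they rose, as did all tested genes, of which 26.3% fell and 18.9% rose. Of all genes of at least 20 CPM on average, 43.6% fell and 23.5% rose. The shares that fell in the integrated stress response, interferon and immediate-early lists lay near the 43.6%. Of 13 heat shock genes 9 fell and 1 rose (median -1.07), with Hspa8, a constitutive chaperone, at 525, 572 and 534 CPM, against 1929, 1501 and 1514 CPM. Of 16 measured NRF2 and antioxidant genes 14 fell and 1 rose (median -1.44). Gpx1, a glutathione peroxidase, had 545, 609 and 569 CPM, against 2330, 2849 and 2471 CPM (log2 change -2.15 ± 0.10). Hmox1, the haem oxygenase, had 1068, 361 and 498 CPM, against 2971, 979 and 1359 CPM (-1.46 ± 0.10), so knockout 4 was highest in both classes. Of 14 integrated stress response genes 6 fell and 2 rose (median -0.53). Of 25 glycolysis and hypoxia genes 16 fell and 5 rose (median -0.96), with Ldha at 583, 444 and 370 CPM, against 1688, 1042 and 916 CPM. Of 28 type I interferon response genes 13 fell and 1 rose (median -0.74), Isg15, a ubiquitin-like modifier, by -1.76 ± 0.16. Of 22 immediate-early and dissociation genes 9 fell and 5 rose, and their median of -0.20 became 0.22 on plain nuclear totals. Fosb rose by 1.22 ± 0.13 while Fos, a member of the same family of AP-1 subunits, fell by 0.70 ± 0.10.

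Some myeloid programmes held a larger share in mitochondria-rich barcodes, without matching for depth. Of all tested genes 18.9% rose and 26.3% fell, and of those of at least 20 CPM on average 23.5% and 43.6%. Of 28 lysosome genes 14 rose and 5 fell, with a median of 0.24. The values at matched depth are given below. Ctsl, a lysosomal protease, had 1445, 602 and 432 CPM, against 631, 361 and 289 CPM (log2 change 0.86 ± 0.10, edgeR adjusted p = 5.2e-11), and Psap, the precursor of the saposins, rose by 0.43 ± 0.09 but fell by 0.89 with a 20% threshold (edgeR adjusted p = 0.0014). Subunits of the proton pump went the other way, with Atp6v0d1 at -1.42 ± 0.14 and Atp6v1a at -1.29 ± 0.15. Of 16 measured phagocytic uptake genes 9 rose and 1 fell (median 0.53). Lrp1, a large scavenging receptor, had 1225, 1535 and 1222 CPM, against 561, 553 and 515 CPM (1.29 ± 0.10), and Stab1, another scavenger receptor, rose by 1.18 ± 0.11.

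The mitochondria-rich barcodes carried the labelled cell type's markers. Of the 13 Ly6Chi monocyte markers 8 rose and 4 fell, with a median of 0.55. Chil3, a secreted chitinase-like protein, had 11455, 5451 and 8146 CPM, against 3889, 2408 and 4168 CPM (log2 change 1.24 ± 0.10, edgeR adjusted p = 6.8e-19). Vcan, a matrix proteoglycan, had 1563, 480 and 1000.3 CPM, against 453, 174 and 449 CPM (1.47 ± 0.10), and Fn1, fibronectin, had 4727, 3137 and 3127 CPM, against 1981, 1248 and 1269 CPM (1.29 ± 0.09). Other members fell: Plac8 had 647, 502 and 813 CPM, against 2462, 2068 and 2894 CPM (-1.93 ± 0.10), and S100a4, a calcium-binding protein, fell by 1.67 ± 0.10. Lyz2, the myeloid lysozyme, had 6744, 12044 and 9562 CPM, against 7717, 17608 and 13491 CPM, and fell by 0.41 ± 0.09 under TMM (edgeR adjusted p = 1.4e-04), but stood at 0.0080 on plain nuclear totals.

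Single barcodes were compared after each was thinned at random to 200 nuclear UMIs, which left out 0, 1 and 2 mitochondria-rich barcodes of knockout 4, control 1 and control 3. At that depth 95.8%, 90.4% and 93.3% of mitochondria-rich barcodes had a UMI of a Ly6Chi marker, against 90.7%, 84.7% and 89.5% of the other barcodes. Unthinned, the shares were 99.8%, 100% and 99.8%, against 99.9%, 99.9% and 99.9%. Lyz2 was seen in 66.6%, 86.7% and 80.6% of thinned mitochondria-rich barcodes, against 64.9%, 87.6% and 84.7%. T cell markers, which monocytes should lack, were seen in 1.70%, 0.457% and 0.577%, against 1.07%, 0.433% and 0.699%. That level does not bound free monocyte RNA, which can be more abundant in a monocyte sort, and the part of free RNA in the monocyte messages was not tested.

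Markers of other blood and liver cell types gave mixed counts. Of 12 macrophage markers 6 rose and 2 fell (median 0.21). Apoe, a lipid carrier, had 8513, 8522 and 11965 CPM, against 4548, 4339 and 6174 CPM (0.94 ± 0.09). Of 7 measured neutrophil markers 1 rose and 2 fell: S100a8 had 352, 142 and 75.4 CPM, against 1519, 611 and 290 CPM (-2.08 ± 0.12). For T cells 0 of 6 and for NK cells 0 of 4 measured markers rose or fell. Of 9 patrolling monocyte markers 1 rose and 2 fell. For dendritic cells 0 rose and 1 fell of 4, for plasmacytoid dendritic cells 1 and 0 of 4, for Kupffer cells 1 and 0 of 5, for B cells 2 and 2 of 7, and for platelets 3 and 1 of 5. For liver endothelium 2 rose and 0 fell of 7, for stellate cells 2 and 0 of 4, for cholangiocytes 3 and 0 of 4, and for the cell cycle 0 and 4 of 10. No mast cell or basophil marker was measured.

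**Figure D5:**
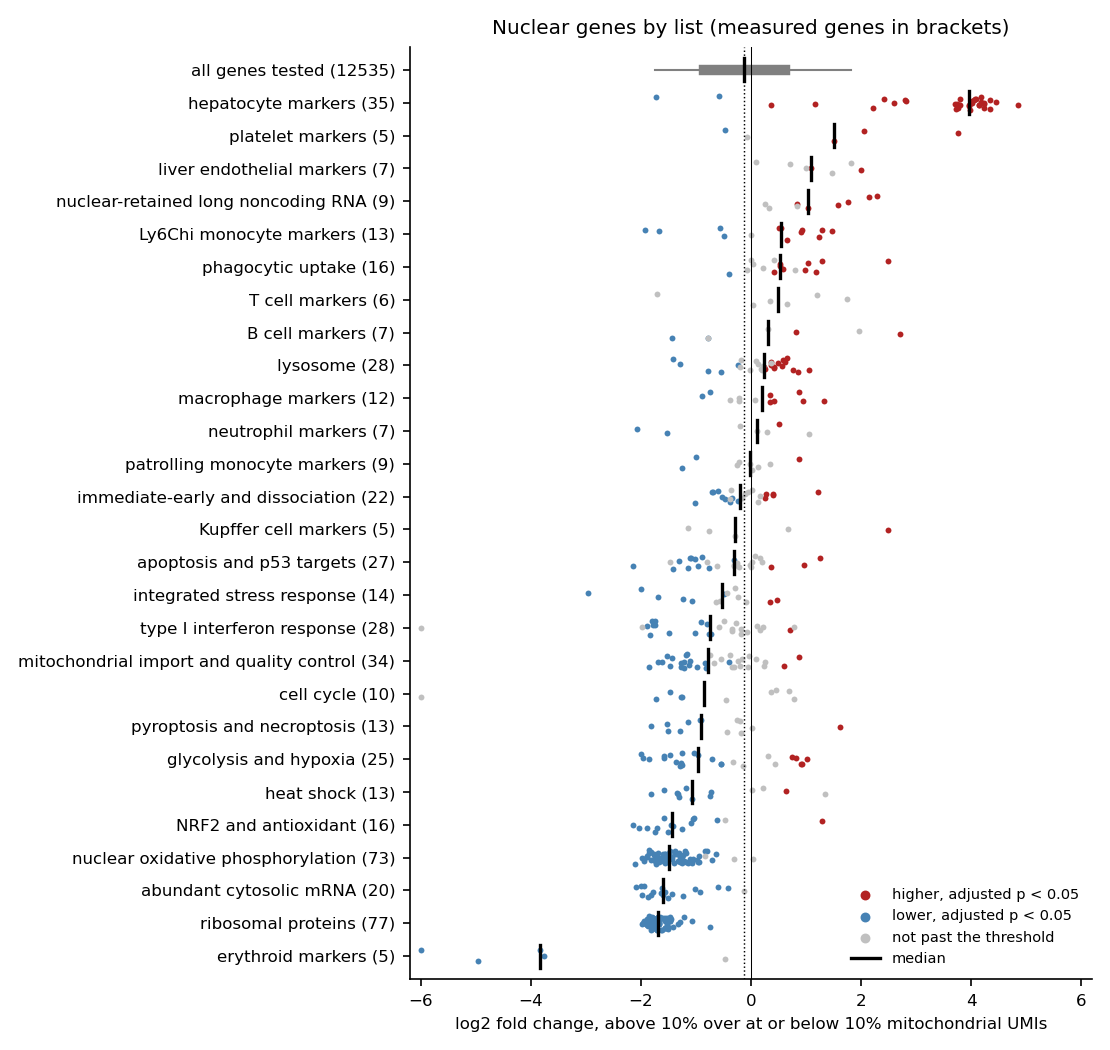
Log2 change of each measured gene in mitochondria-rich relative to other barcodes (x axis, TMM-scaled; values beyond 6 either way are drawn at 6) by gene list, with all 12535 genes on top (thick bar, quartiles; thin line, 5th to 95th percentile; short upright bars, medians) and a dotted line at their median of -0.13. Ribosomal, cytosolic and oxidative phosphorylation genes lie left of the line, nuclear-retained RNAs to its right, hepatocyte genes far right and erythroid genes far left.

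The 12 largest rises among genes of at least 20 CPM on average were all genes that hepatocytes express strongly. That average covers both classes, so genes low in the other barcodes could pass through the class where they were high. Apoc3 had 12.4, 22.4 and 128 CPM in mitochondria-rich barcodes of knockout 4, control 1 and control 3, against 1.28, 1.22 and 3.97 CPM. The ranking is thus a description. Of 35 measured hepatocyte markers 33 rose and 2, Ass1 and Wfdc21, fell (median 3.96). Alb, serum albumin (chr5:90460897-90476602), had 104, 185 and 1178 CPM in mitochondria-rich barcodes of knockout 4, control 1 and control 3, against 17.1, 12.7 and 44.0 CPM in the other barcodes, a log2 change of 3.97 ± 0.17 (edgeR adjusted p = 8.5e-33). Apoa1, the main protein of high-density lipoprotein, had 64.3, 83.5 and 587 CPM, against 8.02, 5.89 and 18.2 CPM (4.24 ± 0.19), and Fgb, the fibrinogen beta chain, had 66.3, 134 and 434 CPM, against 11.5, 7.35 and 15.6 CPM (4.07 ± 0.19). The other 9 were Apoc3, Gc, Ttr, Serpina1a, Fgg, Serpina1b, Ahsg, Mup20 and Rbp4, at 4.02 to 4.46. The Serpina1 and Mup genes have near-identical copies, so their single values are uncertain. Control 3 was the highest library for Alb in both classes.

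These rises are in shares of nuclear RNA, and per barcode they were smaller or nil. Mean Alb UMIs per barcode were 0.0849 in the mitochondria-rich class of knockout 4, 0.189 in control 1 and 0.989 in control 3, against 0.0934, 0.105 and 0.359 in the other barcodes, which is 90.9%, 180% and 275%. A few barcodes weighed heavily: the 10 richest held 46.0%, 52.2% and 53.6% of the class's hepatocyte UMIs. Without those 10 the list held 0.0669%, 0.0791% and 0.373% of nuclear UMIs. In the other barcodes, without their own 10 richest, it held 0.0444%, 0.0366% and 0.0472%. These shares do not compare the same mix of genes. With all barcodes kept, Trf held 14.4%, 9.68% and 4.81% of the list's UMIs in mitochondria-rich barcodes, against 30.8%, 26.9% and 31.5%. Alb held 9.58%, 13.5% and 17.4%, against 3.17%, 2.99% and 7.64%. Barcodes with over 5% hepatocyte UMIs numbered 1, 6 and 29, against 2, 2 and 17, and the 6 and 29 of the control libraries had mean mitochondrial shares of 44.8% and 42.3%. At 200 nuclear UMIs, 1.36%, 3.20% and 9.04% of mitochondria-rich barcodes had an Alb UMI, against 0.460%, 0.385% and 0.896%.

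The hepatocyte messages did not have the same make-up in both classes. Trf, transferrin, had 1.5, 0.718 and 0.277 UMIs per Alb UMI in mitochondria-rich barcodes, against 9.71, 8.98 and 4.12 in the other barcodes. Ass1, an enzyme of the urea and arginine cycles that macrophages also use, had 0.4, 0.145 and 0.0310 per Alb UMI, against 8.10, 9.64 and 1.70. Apoa1 per Alb UMI was alike, at 0.620, 0.452 and 0.498, against 0.469, 0.462 and 0.414. Whether hepatocyte fragments or free RNA contributed was not tested.

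The few barcodes with the highest mitochondrial shares had another make-up in the control libraries. Above 40%, the 20 of control 3 had a median of 329.5 mitochondrial UMIs and 195.5 genes, hepatocyte messages at 13.9% of nuclear UMIs, and Malat1 at 0.308%. The 3 of control 1 had hepatocyte messages at 15.9% and Malat1 at 0.135%. Between 30 and 40%, 4 barcodes of control 3 had hepatocyte messages at 25.8% and Malat1 at 0.177%, and 5 of control 1 had 8.68% and 4.10%, while the 1 of knockout 4 had 0 hepatocyte UMIs and Malat1 at 5.63%. Above 40%, ribosomal protein messages held 10.4% in control 1 and 14.5% in control 3, against 14.97% and 15.1% at or below 3% in the same libraries. Malat1 was thus lower above 30% than between 10 and 11% in every library, on few barcodes.

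As shares of the summed nuclear RNA, erythroid genes fell most. Hba-a1, an alpha-globin, had 6.22, 2.98 and 2.28 CPM in mitochondria-rich barcodes, against 88.6, 35.6 and 43.1 CPM, and Hbb-bs, a beta-globin, had 10.4, 2.98 and 11.4 CPM, against 169, 68.5 and 82.0 CPM. Hbb-bs rested on 12 UMIs, against 11643, and was 12.7-fold lower (95% interval 7.29 to 24.7, counting error only), with a fitted log2 change of -3.76 ± 0.27 (edgeR adjusted p = 1.1e-20). Hba-a2 rested on 2 UMIs, against 4405, a ratio of 28.9 with an interval of 8.00 to 239. Hbb-bt had 0 UMIs, against 1901, so it was at least 8.32-fold lower on a floor of 3 counts over the class. Of 5 measured erythroid markers 4 fell. The sums of the other barcodes came from few of them, since Hbb-bs was seen in 49 of 4563, 21 of 4157 and 65 of 7587. At 200 nuclear UMIs, 0.509%, 0.152% and 0.577% of mitochondria-rich barcodes had an erythroid UMI (3, 1 and 3 barcodes), against 0.482%, 0.313% and 0.250% of the other barcodes, and the exact 95% intervals of these shares overlapped in each library. The alpha-globin copies are near-identical and counts may be split between them.

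The other large falls, from -2.56 to -2.18, were in Mospd3, Skp1a of a ubiquitin ligase, Mcee of propionate metabolism, Mea1, Nsa2 of ribosome assembly, Cox14 of complex IV assembly, and the predicted genes Gm4332, Gm9844 and Gm11478. Gm20417 and Gm9645 were picked after their values were seen. Gm20417, with the smallest p of all, had 205, 291 and 320 CPM, against 20.1, 24.8 and 30.5 CPM (3.44 ± 0.12, edgeR adjusted p = 7.3e-38). The pseudogene Gm9645 rose by 3.69 ± 0.32.

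Transcript length went with the change. Among protein-coding genes of at least 20 CPM, split by the length of their longest annotated transcript at 2134, 3436 and 4963 bases, the median log2 change was -1.13, -0.52, -0.15 and 0.23 from the shortest to the longest class. In the same order 76.4%, 51.3%, 34.4% and 16.1% of genes fell. Spearman's rho of length with log2 change was 0.514 across 5747 genes, which share libraries and depth and are not independent replicates. The lists above were not compared at matched length.

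Depth moved with all of these results, since mitochondria-rich barcodes are shallow. For a matched comparison, 301 of 589 mitochondria-rich barcodes of knockout 4, 315 of 657 of control 1 and 335 of 522 of control 3 were kept. They were matched on nuclear UMIs to equal numbers of other barcodes, and 36 of 4475 genes rose (0.804%) and 84 fell (1.88%). The other barcodes held at least 473, 504 and 472 nuclear UMIs, so the shallowest mitochondria-rich barcodes had no match and were left out. Barcodes above 40% had medians under that floor, at 273 in control 1 and 259 in control 3. Of the matched other barcodes 80.7%, 81.9% and 77.9% had a mitochondrial share over 5%, so this compares neighbouring parts of the same hump. Of the 120 genes called, 117 were also called over all barcodes, 111 with the same sign. Malat1 then differed by 0.25 ± 0.07 (edgeR adjusted p = 0.022), Actb by -0.42 and Fn1 by 0.45. The smallest p was that of S100a9, at -3.04 ± 0.26 (edgeR adjusted p = 1.2e-27), against -1.52 over all barcodes. S100a8 stood at -1.29 and Vcan at 0.81, against -2.08 and 1.47. Ribosomal genes fell in 22 of 77 cases and oxidative phosphorylation genes in 7 of 70, with none rising. Of 26 lysosome genes 0 rose and 0 fell (median 0.06), as with 13 phagocytic uptake genes (median 0.06). Of 13 Ly6Chi markers 5 rose and 1 fell (median 0.33). Alb turned round in this subset, at -0.57 ± 0.16 (edgeR adjusted p = 0.025), with 0 of 16 measured hepatocyte genes rising and 4 falling. Matching changed both the depth and the members compared, and their parts in this were not tested. The coding-length gradient shrank to medians of -0.20, -0.04, 0.05 and 0.12.

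The genotypes were then compared within the mitochondria-rich barcodes. In edgeR's quasi-likelihood test, 0 of 6607 genes rose (0%) and 0 fell (0%) in knockout 4 relative to the controls. The lowest adjusted p was 0.537, 408 genes had an unadjusted p under 0.05, and DESeq2 called 5 (Thbs1, Cd14, Slc2a1, Slc16a3 and Lcn2). The fit had 1 residual degree of freedom, so it takes the variability of the single knockout library to equal that of the controls. On simulated data of this design it recovered 6.5% of changes of 1 on the log2 scale and 90.2% of changes of 2. Those changes were set only in genes of at least 20 CPM. Without the barcodes above 40%, most of which belong to control 3, 14 genes rose, all of them among the 20 with the smallest p over all members.

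The genes with the smallest p were higher in knockout 4. Slc2a1, the glucose transporter GLUT1, had 517 CPM in knockout 4, against 84.1 and 87.5 CPM in controls 1 and 3, a log2 difference of 2.59 ± 0.26 (edgeR adjusted p = 0.54). Thbs1, the matrix protein thrombospondin, had 3546 CPM, against 643 and 923 CPM (2.18 ± 0.26), and Cd14, the lipopolysaccharide co-receptor, had 3274 CPM, against 851 and 998 CPM (1.83 ± 0.21). Slc16a3, a lactate exporter, had 1370 CPM, against 427 and 358 CPM (1.80 ± 0.23). Lcn2, an iron-sequestering lipocalin, had 510 CPM, against 77.2 and 119 CPM (2.40 ± 0.32). Gpat3, Adam8, Ero1l, Cxcl3 and Slc7a11 completed the 10, at 1.43 to 2.67. The other barcodes held the same order for Slc2a1, at 169 CPM in knockout 4, against 48.8 and 60.3 CPM in the controls, on the scale shared by both classes.

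Over all 6607 genes the knockout value lay above both controls for 2363 (35.8%) and below both for 2319 (35.1%). Of 23 measured glycolysis and hypoxia genes 22 lay above both controls and 1 below. Of 26 lysosome genes 23 lay above and 2 below, of 13 Ly6Chi markers 10 and 0, of 13 phagocytic genes 8 and 1, and of 5 neutrophil markers 5 and 0. Of 77 ribosomal protein genes 2 lay above and 57 below, of 32 hepatocyte markers 2 and 20, of 18 interferon genes 4 and 11, of 12 macrophage markers 1 and 7, and of 7 patrolling monocyte markers 1 and 6. None of these genes passed the test, and the counts are a description of 3 libraries.

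Whether the change from other to mitochondria-rich barcodes itself differed between genotypes was tested as an interaction. It was larger in knockout 4 for 4 of 14595 genes (0.0274%) and smaller for 8 (0.0548%) in edgeR's quasi-likelihood test, and for 0 in DESeq2, where 113 genes had an unadjusted p under 0.05. Of the 8, 6 were hepatocyte genes, led by Alb at -1.81 ± 0.26 (edgeR adjusted p = 9.8e-08). Lcn2 had 424 CPM in mitochondria-rich and 332 CPM in other barcodes of knockout 4, against 65.1 and 157 CPM in control 1 and 98.9 and 136 CPM in control 3 (1.24 ± 0.24, edgeR adjusted p = 0.0013). Cd14, chemokine Cxcl3 and the rest of the 12 are given in the closing section. Without the barcodes above 40%, 5 genes were called larger and 4 smaller.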

How the data were processed

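The authors deposited 1 matrix of raw UMI counts per library, made on build GRCm38 with bcl2fastq and Cell Ranger 3.0.2, per the submitters' processing notes. No barcode had a total under 500 UMIs. No source used here gives the rule behind that floor, or the handling of strand and of reads shared by overlapping genes or copies. Of 53802 gene identifiers, 53706 (99.8%) matched GENCODE M21, the source of positions, gene types and sequences. Doublets were not called and no barcode was removed by gene number.

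UMI counts were summed per library over barcodes above 10% and at or below 10% mitochondrial UMIs, without the 37 mitochondrial genes. Sums were tested with edgeR 4.0.16 in R 4.3.3 (TMM, filterByExpr, glmQLFit, two-sided glmQLFTest, Benjamini-Hochberg adjusted p under 0.05). The comparison of barcode classes used the library as a block, since both classes come from the same library. The common biological coefficient of variation was 8.42% for it and 18.0% for knockout against control. Levels are CPM and errors are SE. Exact Clopper-Pearson 95% intervals and floors of 3 counts cover counting error only, since barcodes are not replicates. DESeq2 1.42.0, other scalings, thresholds of 5% and 20%, a minimum of 500 genes, thinning and depth matching served as alternatives, with Python 3.11.15, numpy 2.4.6, scipy 1.17.1 and pandas 2.3.3.

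Named genes were the mitochondrial messenger and ribosomal RNAs, the 12 largest rises and 12 largest falls with an adjusted p under 0.05, 1 sign in all 3 libraries and a mean of at least 20 CPM, the 10 smallest p for genotype and interaction, for each list the members of smallest p and highest level, and Lyz2, Alb, Apoa1, Hba-a1 and Hbb-bs. The members and the 36 gene lists were chosen with earlier results of these data known. The barcode-class test was tested on simulated data, where it recovered 88.5% of 1-unit and 99.8% of 2-unit log2 changes, with 5.01% and 4.16% of calls false. Only a small part of the genes was changed there, all of at least 20 CPM, up or down with equal odds. In the data 5665 of 12535 genes were called, so these rates do not cover a shift that broad or its dependence on scaling.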

Additional observations from a re-analysis of the deposited data

Results flagged for a closer look

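For 12 genes the log2 change from other to mitochondria-rich barcodes differed between knockout 4 and the 2 controls in the interaction test (edgeR's quasi-likelihood test, adjusted p under 0.05), and these call for a second look. It was smaller in knockout 4 for the hepatocyte genes Alb (-1.81), Fgb (-2.02), Apoa1 (-1.61), Fga (-2.43), Fgg (-1.82) and Mup3 (-2.02). Alb had 99.9 CPM in mitochondria-rich and 17.7 CPM in other barcodes of knockout 4, against 179 and 13.2 CPM in control 1 and 1134 and 45.5 CPM in control 3. In level, the controls thus differed from each other by more than knockout 4 did from control 1. In the log2 change itself they did not. In the comparison of barcode classes it was 2.57 in knockout 4, 3.81 in control 1 and 4.73 in control 3. It was also smaller for Cxcl3, a neutrophil-attracting chemokine, at -1.73, with 154 and 248 CPM in knockout 4, against 15.9 and 12.6 CPM in control 1 and 35.2 and 10.2 CPM in control 3. Mir6236 stood at -1.07, with 174 and 93.3 CPM in knockout 4, against 334 and 98.9 CPM in control 1 and 431 and 94.5 CPM in control 3.

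The change was larger in knockout 4 for Lcn2 (1.24), I830127L07Rik (1.09), Smpdl3a, a secreted phosphodiesterase (0.80), and Cd14 (0.69). Smpdl3a had 781 and 411 CPM in knockout 4, against 521 and 494 CPM in control 1 and 635 and 564 CPM in control 3. Cd14 had 2722 and 1046 CPM, against 717 and 416 CPM in control 1 and 827 and 549 CPM in control 3, so its level was highest in knockout 4 in both classes. I830127L07Rik had 318 and 188 CPM, against 101 and 136 CPM in control 1 and 141 and 166 CPM in control 3. With 1 knockout library these values have no replicate of their own, and none of the 12 was called by DESeq2.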

How the results depend on the processing

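The threshold set the share of mitochondria-rich barcodes. In knockout 4, control 1, control 3 and all libraries together it was 23.0%, 22.4%, 13.5% and 18.6% at 5%, 3.49%, 4.36%, 1.71% and 2.93% at 15%, 0.660%, 0.956%, 0.481% and 0.658% at 20%, 4.76%, 8.33%, 2.79% and 4.82% with at least 500 genes, and 4.97%, 5.59%, 1.46% and 3.56% when only the 13 mitochondrial messenger RNAs were counted. For mitochondria-rich against other barcodes, the genes that rose and fell numbered 3796 and 1974 on plain nuclear totals, 1020 and 1030 after thinning to 200 nuclear UMIs, 36 and 84 when depth matched, 69 and 526 at 20%, and 3582 rose at 5%. Thinning and depth matching tested fewer genes, 5959 and 4475. The rest moved the counts by less than 1.5 times: median-ratio (RLE) scaling gave 2738 and 2906, DESeq2 2195 and 2216, no filter on low counts 1825 and 3560, and other barcodes limited to at or below 3% gave 2462 and 3313. Leaving out a library gave 1689 to 1931 rises and 2694 to 2926 falls. Dropping barcodes above 40% gave 2401 and 3280, dropping those with a namesake in another library 2353 and 3266, both chosen after seeing the data, as was the 3% limit. The library block pairs both classes of barcodes, and without the block 1996 genes rose and 2866 fell. No paired analysis was possible because knockout 4 shares no replicate number with controls 1 and 3 for knockout against control.

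Single genes turned sign as follows, in log2 units. Depth matching gave Ttr -0.27, Apoa1 -0.37, Fgg -0.18, Ahsg -0.81, Fgb -0.45, Mup20 -0.63, Alb -0.57, Apoe -0.19, Il1b -0.13, Bak1 0.21 and Atp6v1a 0.20. A 20% threshold gave Gsdme -0.63, Il1b -1.09, Fosb -0.37, Psap -0.89 (edgeR adjusted p = 0.0014), Msr1 -0.42, Chil3 -0.24, Apoe -0.15, Mrc1 -0.77 and Mmp8 -0.17, with Slc7a11 at -0.24 for genotype and Cd14 at -0.73 for the interaction. Plain totals gave Lyz2 0.0080 and Mcl1 0.20, and thinning gave Mcl1 0.15. Il1b was also at -0.12 with no filter, -0.11 at 5%, -0.25 with at least 500 genes and -0.050 to 0.023 when a library was left out (lowest without control 1), and Mmp8 at -0.063 at 5%. The causes were not tested.

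For knockout against control the genes higher and lower were 57 and 35 with no filter, 38 and 24 after thinning, 94 and 26 at 5%, and 0 and 12 at 20%, while DESeq2 called 5 higher and the fit without barcodes above 40% called 14. For the interaction they were 1 and 0 with at least 500 genes, 0 and 0 in DESeq2 and after thinning, 0 and 12 at 20%, and 5 and 4 without barcodes above 40%. Leaving out a control leaves no residual degrees of freedom for either comparison, so no test was made without one. Depth limits these comparisons, since each mitochondria-rich sum holds at most 1.65% of its library's UMIs.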
